A study of Mus musculus with 21 samples.

Results

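A set of 6 mouse genes, of the 33861 in the count table, is described here: Ccl19, its near-identical copy Gm2564, Cux2, Lix1l, Mctp1 and Ano3. They were chosen by their counts in these samples, seen in cultured FS cells and hardly at all in the embryo's epiblast, so the FS-to-epiblast difference is given as a description without a test. The series holds 21 RNA-seq samples: 12 of cultured cells, 1000 cells each, and 9 of single mouse epiblasts collected one by one. FS cells, labelled formative stem cells and grown in A3XR medium, come from 2 lines sampled at passages 10, 11 and 18 (line 1) and 12, 13 and 16 (line 2). AF and AFX cells, labelled EpiSCs and grown in the media of those names, carry the line name E14 and were each sampled at passages 14, 15 and 16. The epiblasts are 3 each of E5.0, E5.5 and E6.0, with E6.0 given as E6.5 in a second label. Because FS and E14 cultures bear different line names, medium and line of origin cannot be told apart in FS against AF or FS against AFX. The samples of a line are its passages, so p-values here measure the spread between passages, not between independent derivations. Strain, genotype and derivation are not given in the sources used here.

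Pluripotent cells pass through a formative state between the naive state of the early blastocyst and the primed state that EpiSCs represent. Their identity rests on transcription factors such as Oct4, Sox2 and Otx2, and none of the 6 genes is a textbook member of that circuit. Ccl19 encodes a secreted chemokine that binds the receptor CCR7 and guides lymphocytes and dendritic cells into lymph nodes. Cux2 encodes a cut-like homeobox factor best known in upper-layer neurons of the cerebral cortex. Mctp1 encodes a membrane protein with several calcium-binding C2 domains, and Ano3 a neuronal member of the anoctamin (TMEM16) family of channels and lipid scramblases. Lix1l is the less studied relative of Lix1.

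Ccl19 (ENSMUSG00000071005) lies on the minus strand at chr4:42754525-42756577 of GRCm38, the assembly also called mm10. Gm2564 (ENSMUSG00000091938) lies 122.811 kb away on the plus strand at chr4:42629719-42631714, and is protein coding in GENCODE M21 but a transcribed pseudogene in RefSeq. Over the 327 bases of the Ccl19 coding region, Gm2564 differed by 1 base, the substitution T2C (Ccl19's base first, counted from 1 at the A of its start codon). The pseudogene Ccl19-ps3 matched the coding region without a mismatch over 324 bases, starting after the start codon. Gm12407 differed at C198T and G224C, and Ccl19-ps1 at T2C, C68A, C118T and A267C. The starts of the coding region, printed from the GENCODE transcripts, show how little separates the copies; capitals mark the start codon in Ccl19 and the differing base in Gm2564.
Ccl19: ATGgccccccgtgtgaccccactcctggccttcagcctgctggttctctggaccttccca
Gm2564: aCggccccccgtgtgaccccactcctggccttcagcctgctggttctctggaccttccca
Ccl19-ps3: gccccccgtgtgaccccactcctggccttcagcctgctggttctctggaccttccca
The Gm2564 transcript of 707 bases aligned to the Ccl19 transcript of 745 bases with 8 mismatches, and the longest identical run was 478 bases. Of all 50-base windows in Ccl19 transcripts, 52.0% occurred in another gene's transcript, and of those in Gm2564, 72.5%. A read from such a window has no single source, and how the counting treated reads with several sources is not given in the sources used here. Counts of Ccl19 and Gm2564 are therefore uncertain one by one. The other 4 genes shared few 50-base windows: 2.71% in Lix1l, 0.209% in Ano3, 0.197% in Cux2 and 0 of 8238 in Mctp1.

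Ccl19 was read in every FS sample and in almost nothing else. Its counts in FS line 1 were 105, 89 and 131 at passages 10, 11 and 18, and in line 2 they were 148, 159 and 205 at passages 12, 13 and 16. AF gave 0, 3 and 0 counts at passages 14, 15 and 16, and AFX and all 9 epiblasts gave 0. Every FS sample lay far above every other sample, and the 3 AF counts all came from passage 15. In counts per 1000000 counts of the library (CPM), FS line 1 stood at 11.5 ± 0.0658 (SD, n = 3) and line 2 at 14.8 ± 3.2 (SD, n = 3). The FS samples together held 126 times the AF level, with a 95% exact interval of 43.0 to 613 that covers counting error only. Against AFX, with no count in 3 libraries, the FS level was at least 45.7-fold higher, and against the epiblasts at least 39.8-fold higher, taking a floor of 3 counts per library, averaged over the group.

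Gm2564 followed Ccl19 sample by sample. FS line 1 gave 113, 66 and 123 counts in the order of passages above, and FS line 2 gave 163, 146 and 191. No count fell in AF or AFX, and the epiblasts held 2 counts in all, 1 in E5.5 embryo 1 and 1 in E6.0 embryo 3. The FS samples again stood apart from all others. The ratio of Gm2564 to Ccl19 counts ranged from 0.742 to 1.10 over the 6 FS samples. Ccl19-ps3 had 26 to 53 counts in FS, Gm12407 3 to 11 and Ccl19-ps1 0 to 2, and none of these 3 had a count in AF, AFX or the epiblasts.

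Summing the 5 copies sets aside which of them a read was counted for. The sum would still miss reads with several sources if they were dropped. It would hold them more than once if they were counted at each copy. The sum was 27.8, 23.7 and 27.9 CPM in FS line 1 and 31.2, 40.2 and 29.0 CPM in FS line 2, for a mean of 30.0 ± 5.56 CPM (SD, n = 6). In AF it was 0.274 CPM at passage 15 and 0 at passages 14 and 16, in AFX 0, and in the epiblasts 0 except for 0.105 CPM in E5.5 embryo 1 and 0.0923 CPM in E6.0 embryo 3. Ccl19's own row held 41.2% to 48.4% of the summed counts in FS, a share that depends on how reads with several sources were counted.

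**Figure D1:**
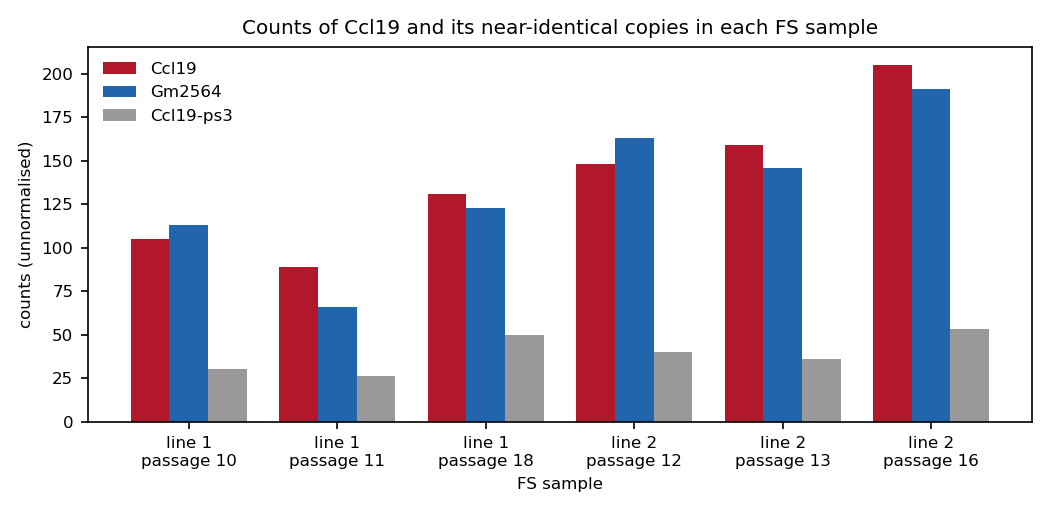
Counts (unnormalised, vertical axis) of Ccl19, Gm2564 and Ccl19-ps3 in each of the 6 FS samples (horizontal axis, by line and passage). Ccl19 and Gm2564 bars are of similar height in each sample, from 66 to 205 counts, and Ccl19-ps3 stays between 26 and 53.

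Mctp1 separated the cultures along other lines than Ccl19 did. This gene, on the plus strand at chr13:76384535-77031810, gave 30, 14 and 90 counts in FS line 1 and 214, 170 and 354 in FS line 2. AF gave 12, 8 and 26 counts and AFX 275, 193 and 226. FS line 2 and AFX overlapped at 20.3 ± 1.77 and 21.4 ± 3.15 CPM, while FS line 1 and AF overlapped at 4.35 ± 3.21 and 1.60 ± 0.901 CPM (each SD, n = 3). The lowest sample of the first pair, at 18.8 CPM, lay above the highest of the second, at 7.96 CPM in FS line 1 passage 18. Of the 9 epiblasts, 3 had 1 count each (E5.0 embryo 1 and E6.0 embryos 1 and 3) and the others had 0. The epiblast mean was 0.0378 CPM, below both FS lines.

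Ano3, on the minus strand at chr2:110655201-110950923, was present in every culture and stepped down from FS to AFX to AF. FS line 1 gave 12.8, 14.3 and 14.2 CPM and FS line 2 gave 19.6, 16.5 and 19.2 CPM. AFX followed with 9.60, 11.4 and 10 CPM and AF with 4.63, 8.76 and 9.24 CPM. No sample of one of these 4 groups overlapped the next in the order FS line 2, FS line 1, AFX, AF. The tests given below did not call Ano3 between the FS lines, in FS against AFX or in AFX against AF. Among the epiblasts a single count fell in E5.0 embryo 2, E5.5 embryo 1 and E6.0 embryo 3 each. Pooled FS counts were 473 times the epiblast level (95% exact interval 162 to 2299, covering counting error only).

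Lix1l was present in every culture, with its lowest culture mean in AF, and nearly missing from the epiblasts. It lies on the plus strand at chr3:96601149-96626171 and gave 13.7, 11.6 and 16.6 CPM in FS line 1 and 13.6, 12.4 and 11.8 CPM in FS line 2. AFX gave 12.3, 12.7 and 8.89 CPM, and AF 8.24, 9.94 and 6.13 CPM. The FS samples overlapped AFX but all lay above AF, and AFX overlapped AF. The E5.5 epiblasts had no count, E5.0 embryo 1 had 1, and the E6.0 embryos had 1, 4 and 1. With 7 counts in 9 epiblasts, pooled FS counts were 163 times the epiblast level (95% exact interval 79.0 to 408, covering counting error only).

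Cux2 went against the rule in the later epiblasts. The gene, on the minus strand at chr5:121856366-122050102, had no count in the 3 E5.0 epiblasts, but 36, 54 and 19 counts at E5.5 and 39, 58 and 41 at E6.0. In CPM the E5.5 epiblasts stood at 3.69 ± 2.03 and the E6.0 epiblasts at 4.40 ± 0.595 (each SD, n = 3), and both stages overlapped the AF samples. FS line 1 gave 7.21, 13 and 16 CPM, FS line 2 gave 10.8, 13 and 11.4 CPM, AF gave 2.83, 5.02 and 1.75 CPM, and AFX gave 8.52, 4.28 and 6.04 CPM. All FS samples exceeded every AF sample and every epiblast, and overlapped AFX through FS line 1 passage 10. Pooled FS counts were at least 29.9-fold higher than at E5.0, but 3.36 times the level at E5.5 (95% exact interval 2.75 to 4.15) and 2.74 times that at E6.0 (2.28 to 3.30). These intervals cover counting error only, not the spread between samples. Each of the 6 epiblasts of E5.5 and E6.0 thus held Cux2 reads.

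**Figure D2:**
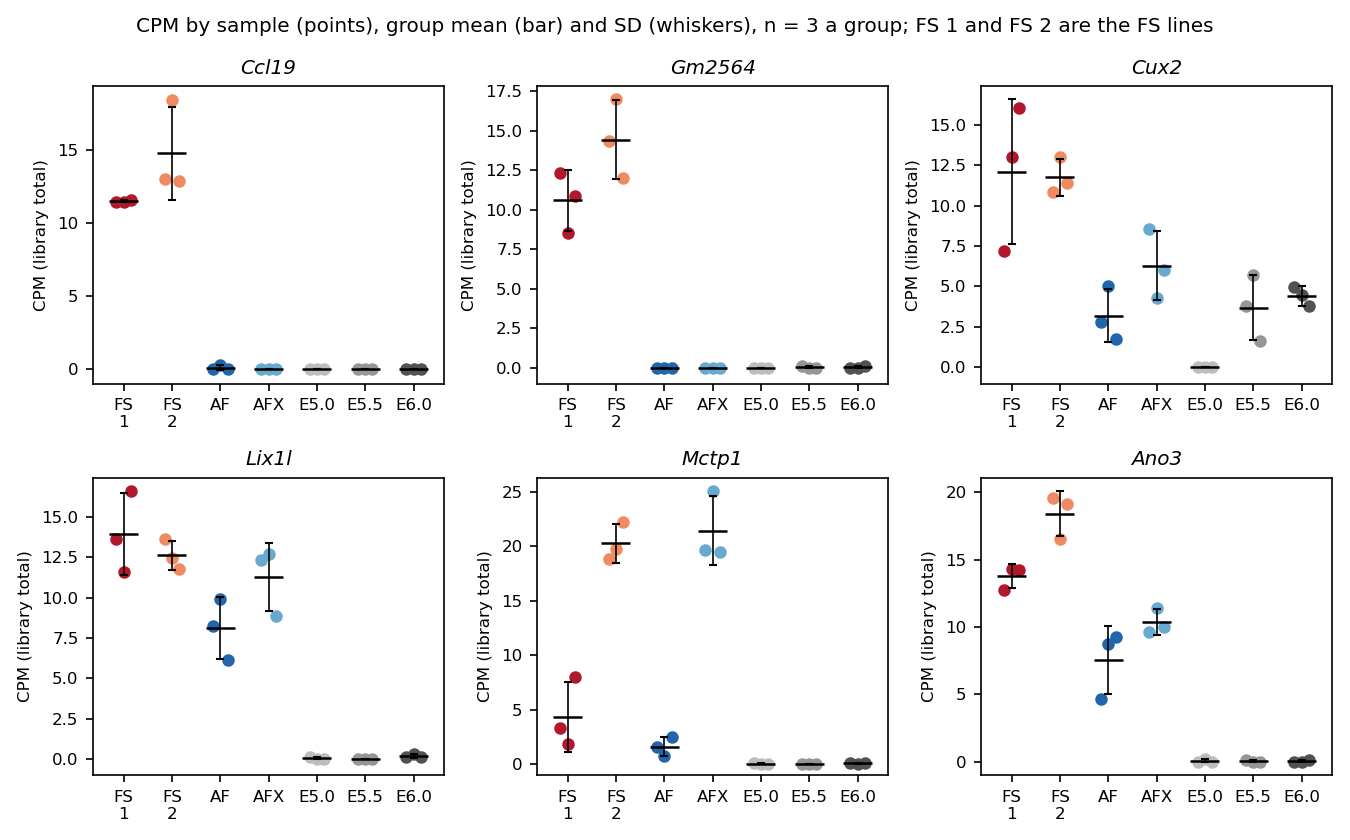
CPM (vertical axis) for each gene in the 7 groups (horizontal axis), with 1 point a sample, the group mean as a bar and the SD as whiskers (n = 3 a group). Ccl19 and Gm2564 stand above the axis in the FS lines alone at this scale, Mctp1 is high in FS line 2 and AFX, and Cux2 is above 0 at E5.5 and E6.0.

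The 6 genes were moderate in level in FS. Their FS means ran from 11.9 CPM (Cux2) to 16.1 CPM (Ano3), with 69.1% to 72.8% of the 27195 genes that had a count in FS lying lower. Per kilobase of exon the order changed, since Cux2 has 10.082 kb of exon and Gm2564 0.707 kb. On that scale the FS levels were 17.7 CPM per kb for Gm2564, 15.2 for Ccl19, 3.67 for Lix1l, 2.23 for Ano3, 1.5 for Mctp1 and 1.18 for Cux2.

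Read against the rule, the genes fell into unlike patterns. Ccl19 and Gm2564 were at or under 3 counts in every AF, AFX and epiblast sample. Lix1l, Ano3 and Mctp1 were near 0 in the epiblasts but present in all 12 cultures, and Cux2 was missing only at E5.0. A plain form of the rule, at most 3 counts in every epiblast and at least 1 CPM in every FS sample, held for 39 genes, 28 of them protein coding. Ano3, Ccl19, Gm2564 and Mctp1 ranked 1 to 4 among these by FS level. Lix1l fell just outside through the 4 counts of E6.0 embryo 2, and Cux2 fell well outside. The next in level were Otog at 8.46 CPM in FS, Pcdhgb1 at 7.79, Unc45b at 6.85, Trp53cor1 at 6.60, Pcdhgb4 at 6.30 and Gm13302 at 5.78. Of the 39, 13 were also at 1 CPM or more in every AF and AFX sample, and 3 were at or under 3 counts in all of those: Ccl19, Gm2564 and Ccl19-ps3.

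All groups carried pluripotency markers. Library totals ran from 5827093 to 15916800 counts, so 3 counts stood for 0.188 to 0.515 CPM, and the 5 most abundant loci, among them 2 mitochondrial ribosomal RNAs, took 22.1 ± 1.79% of FS counts (SD, n = 6). Summed over 8 pluripotent epiblast markers the level was 2126 to 3186 CPM in FS, 1277 to 1907 in AF, 1925 to 2346 in AFX and 3524 to 6220 in the epiblasts, and no marker was without a count in any of these groups. Visceral endoderm markers summed to 0.264 to 13.8 CPM in FS, 88.8 to 190 in AF, 13.2 to 46.3 in AFX, 229 to 703 at E5.0, 25.0 to 58.8 at E5.5 and 9.32 to 20.6 at E6.0. They were thus highest at E5.0, the stage at which Cux2 had no count, and their part in that difference was not tested. Feeder fibroblast markers summed to 202 to 302 CPM in FS, 702 to 969 in AF, 417 to 518 in AFX and 29.7 to 141 in the epiblasts, so they were lower in the epiblasts than in every culture, as Lix1l, Ano3 and Mctp1 were, and their part in that pattern was not tested. In bulk RNA, fewer cells of a type and less RNA per cell cannot be told apart.

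Markers of the cells in which Ccl19 and the neural genes are usually studied were read beside them. The 10 immune and lymphoid stroma markers summed to 30.2 to 37.4 CPM in FS, 18.9 to 27.9 in AF, 18.4 to 21.4 in AFX and 21.1 to 41.2 in the epiblasts. This sum was thus higher in every FS sample than in any AF or AFX sample, as Ccl19 was, and its part in the Ccl19 difference was not tested. Most of it came from Pdpn, at 22.8 CPM in FS, 10.6 in AF and 9.75 in AFX, and Ltbr, at 10.1, 13.5 and 9.35 CPM. Cd3e (T cells), Itgax (dendritic cells), Lyz2 (macrophages) and Cxcl13 (lymphoid stroma), 4 of the 10, had no count in any FS sample, and Ptprc, Cd74 and Adgre1 had at most 6 in a library. In AF 4 of the 10 had no count, and in AFX 5. The 7 neuron markers summed to 177 to 228 CPM in FS line 1, 238 to 248 in FS line 2, 156 to 195 in AF, 228 to 250 in AFX and 23.5 to 51.5 in the epiblasts, and all 7 had counts in each group. The neuron sum thus moved with Mctp1 between the FS lines and between AFX and AF, and its part in that difference was not tested. The visceral endoderm and feeder sums given above were lower in AFX than in AF, and lower in FS than in AF, and their part in the differences from AF was not tested either.

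The difference between the FS lines was tested over all 16052 genes that passed a filter on low counts, which all 6 genes passed, with edgeR's quasi-likelihood test and Benjamini-Hochberg adjustment at 0.05. Mctp1 was the 1 gene of the 6 called higher in line 2, where 2.65% of all tested genes were (1.2% were lower and 3.85% differed in either direction). Its difference was 2.15 ± 0.41 on the log2 scale (SE), or 4.44-fold, with an adjusted p of 0.00933, and every line 2 sample was above every line 1 sample. With a sample left out in turn it passed in 6 of 6 fits, from 1.82 without FS line 1 passage 11 (adjusted p = 0.0272) to 2.95 without FS line 1 passage 18 (adjusted p = 0.000543), and the highest adjusted p was 0.0457, without FS line 1 passage 10. The other 5 genes did not pass. Ano3 differed by 0.39 ± 0.22 (95% interval -0.04 to 0.82, adjusted p = 0.398) and Ccl19 by 0.33 ± 0.33 (-0.32 to 0.98, adjusted p = 0.675). The lines overlapped for neither gene, but how many of all tested genes were so separated was not counted. Gm2564 had 0.42 ± 0.27, Lix1l -0.18 ± 0.22 and Cux2 -0.08 ± 0.35. The median over the 6 was 0.36, beside -0.02 over all tested genes.

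AFX against AF compares 2 media in cells that carry one line name. No FS sample enters the difference, but the FS samples, as 1 group, enter the estimate of the spread. Mctp1 was higher in AFX by 3.73 ± 0.87 on the log2 scale (SE), 13.2-fold, with an adjusted p of 0.0226 by the same test, and the groups did not overlap. It was 1 of 4 genes with counts enough to compare, against 4.3% of all tested genes called higher (4.42% were lower and 8.73% differed in either direction). Its adjusted p depended on the fit, and 8 of 14 alternatives kept the call. With the FS lines as separate groups it was 0.000274, with AF and AFX alone 0.0013 (both edgeR), and with the DESeq2 Wald test 0.000472. With FS as 1 group, leaving out 1 sample at a time kept the log2 difference between 3.36 and 4.25. The call then passed in 1 of 6 fits, the one without AFX passage 16. Without AF passage 14, 15 or 16 the adjusted p was 0.078, 0.106 and 0.0572, and without AFX passage 14 or 15 it was 0.0522 and 0.0629. Cux2 had a difference of 0.96 ± 0.38 (95% interval 0.22 to 1.70, adjusted p = 0.145), which passed without AF passage 15 (1.47, adjusted p = 0.0383). Lix1l had 0.47 ± 0.23 (0.02 to 0.91, adjusted p = 0.253) and Ano3 0.43 ± 0.25 (-0.06 to 0.92, adjusted p = 0.349). Ccl19 and Gm2564 were at or under 3 counts in both media, so no fold is given. The median over the 4 compared genes was 0.71, beside 0.01 over all tested genes.

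All 6 genes were called higher in FS than in AF, where 8.86% of tested genes were (10.6% were lower and 19.5% differed in either direction). The FS samples also served to choose the genes, so this count and the one against AFX are not independent of the choice. Gm2564 and Ccl19 passed the filter on low counts through FS alone, so their calls are not read further and no p is given for them. Gm2564, with no AF count, was at least 39.4-fold higher. Ccl19 was fitted at 6.77 ± 0.56 on the log2 scale (SE), a size that rests on the 3 counts of AF passage 15: without that sample it was 10.08, and over all fits with a sample left out it ran from 6.19 to 10.08. Mctp1 was higher by 2.86 ± 0.81 (SE, adjusted p = 0.0288), Cux2 by 1.80 ± 0.35 (adjusted p = 0.0021), Ano3 by 1.00 ± 0.22 (adjusted p = 0.00551) and Lix1l by 0.63 ± 0.20 (adjusted p = 0.0398). For Mctp1 the size depended on the line: line 1 alone gave 1.40 (adjusted p = 0.108) and line 2 alone 3.56 (adjusted p = 2.5e-05). Lix1l passed with neither line alone, at 0.71 (adjusted p = 0.0868) and 0.54 (adjusted p = 0.126), and in 3 of 9 fits that left out a sample. Those that ended its call left out FS line 1 passage 10 or 18, FS line 2 passage 12 or 13, or AF passage 14 or 16, with adjusted p from 0.0521 to 0.199. For Mctp1 the call was lost without AF passage 14 (adjusted p = 0.0949), 15 (0.122) or 16 (0.0662). Ano3 with line 1 alone had 0.78 (adjusted p = 0.067). The median over the 6 was 2.33, beside 0.02 over all tested genes, and does not depend on the size given to Gm2564.

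Against AFX, FS was called higher for Ccl19 and Gm2564, 2 of the 6, where 3.78% of tested genes were (4.92% were lower and 8.7% differed in either direction). Both were without a count in AFX, so the folds are bounds of at least 45.7 for Ccl19 and at least 43.5 for Gm2564. Both also passed the filter through FS alone, and no p is given. Cux2 differed by 0.84 ± 0.32 (SE, 95% interval 0.21 to 1.47, adjusted p = 0.127), Ano3 by 0.57 ± 0.22 (0.15 to 0.99, adjusted p = 0.126) and Lix1l by 0.16 ± 0.20 (-0.22 to 0.55, adjusted p = 0.678). Mctp1 pointed the other way at -0.87 ± 0.61 (-2.07 to 0.34, adjusted p = 0.453). With line 1 alone, Mctp1 was lower in FS than in AFX by -2.32 (adjusted p = 0.0118), and with line 2 alone the difference was -0.17 (adjusted p = 0.737). The median over the 6 was 0.70, beside 0.00 over all tested genes.

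**Figure D3:**
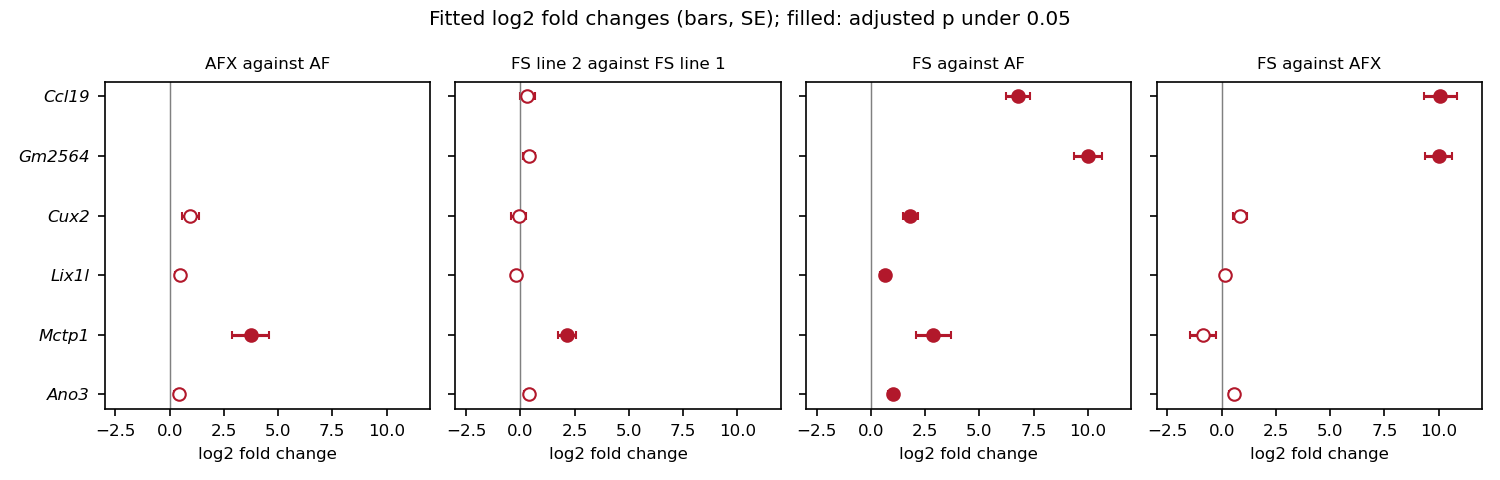
Fitted log2 fold changes (horizontal axis) of the 6 genes (rows) in 4 comparisons of cultures, with SE as bars and filled points for an adjusted p under 0.05. Ccl19 and Gm2564 are left out of AFX against AF, where both groups are at or under 3 counts, and Mctp1 is filled in every comparison but FS against AFX.

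The stretch of chromosome 4 that holds Ccl19 and Gm2564 was then read gene by gene, a choice made after their values had been seen. Within 1000 kb on the side of lower coordinates, where Gm2564 lies, 23 of the 27 other tested genes were called higher in FS than in AF, where 8.86% of all tested genes were, and their median log2 difference was 3.51. Of these 27, 17 averaged under 1 CPM in both AF and AFX, so they passed the filter on low counts through FS, and their calls follow in part from that filter. Within 1000 kb on the other side, 2 of 24 were higher and 2 lower, with a median of -0.07. Against AFX the counts were 17 of 27 higher on the lower side (median 2.62) and 3 of 24 on the higher side (median 0.18), beside 3.78% of all tested genes. Over all 40 other genes of the table on the lower side, with no filter, the FS mean was above the AF mean in 36 and below it in 1, and on the higher side it was above in 24 of 45 and below in 19. Summed over the 40, which share windows among themselves and also with Ccl19, Gm2564 and higher-side genes, the level was 172 to 251 CPM in the FS samples, 79.6 to 99.8 in AF, 90.7 to 110 in AFX and 58.9 to 99.8 in the epiblasts. Between AFX and AF, which share a line name, 2 of the 27 lower-side genes were called higher, beside 4.3% of all tested genes, but the 17 under 1 CPM in both media had few counts with which to be called. Between the FS lines, which share a medium, 1 of the 27 was called higher, beside 2.65%.

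Genes of the stretch include Gm17167 at 26.2 CPM in FS, 0.922 in AF and 3.51 in AFX (4.68 on the log2 scale against AF). In the same order, Gm13301 stood at 7.19, 0.0608 and 0.302 CPM and Fam205a3 at 1.56, 0.0628 and 0.115 CPM. Gm13301 and Fam205a3 passed the filter on low counts through FS, so no fold is given for them. Gm12394, on the higher side at 27.403 kb from Ccl19, had 1.81 CPM in FS, 0.130 in AF and 0.226 in AFX. These names, too, belong to repeated families. In 22 of the 27 lower-side genes more than 50% of the 50-base windows occurred in another gene's transcript, with a median of 84.9%, against 2 of 24 on the higher side, with a median of 3.61%. How reads from such windows were counted is not given in the sources used here. The genes of the lower side may therefore share reads with each other and may not be separate measurements. In the epiblasts the stretch was low as well: Gm17167 stood at 0.771 CPM, Gm13301 at 0.133 and Fam205a3 at 0.0330.

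**Figure D4:**
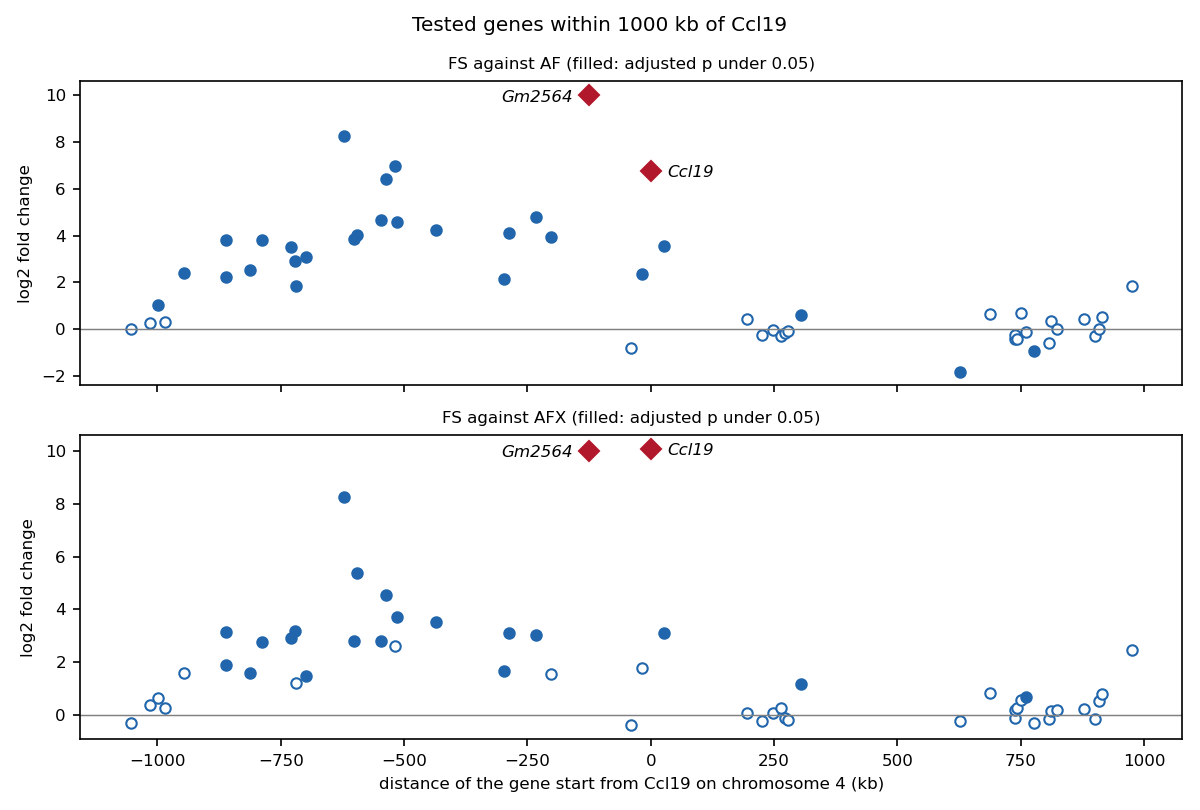
Log2 fold change of FS against AF (top) and against AFX (bottom) on the vertical axis, for each tested gene within 1000 kb of Ccl19, by the distance of its start from that of Ccl19 in kb (horizontal axis, negative toward lower coordinates). Filled points have an adjusted p under 0.05 and lie mostly on the negative side, 23 of 27 in the top panel beside Gm2564, and 2 higher and 2 lower of 24 on the positive side.

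The nearest protein-coding neighbours of the other 4 genes were read in the comparisons of cultures. Ppp1cc, 108.176 kb from Cux2, was called higher in FS than in AF by 0.40 (adjusted p = 0.0151), 1 of 4 tested neighbours of Cux2, where 8.86% of all tested genes were. Polr3gl, 6.968 kb from Lix1l, was called lower in FS line 2 than in line 1 by -1.53 (adjusted p = 0.0173), 1 of 4 tested there, where 1.2% of all tested genes were. Polr3gl and Ankrd34a, the 2 tested neighbours of Lix1l on its lower side, were also lower in the epiblasts, as Lix1l was: Polr3gl averaged 6.41 CPM in FS and 0.589 in the epiblasts, and Ankrd34a 4.21 and 0.823 CPM. For Mctp1, 5 neighbours were tested, and their lowest adjusted p by edgeR over the 4 comparisons was 0.242 (Fam172a, FS against AFX). Around Ano3 no neighbour had counts enough to be tested. Genes annotated over the same bases on the opposite strand lie within Ccl19, Cux2, Lix1l, Mctp1 and Ano3, and the strand setting of the counting is not given in the sources used here, so reads of such partners could enter these rows.

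The receptor side of the CCL19 pathway was almost silent. Ccr7, the receptor of CCL19, averaged 0.150 ± 0.197 CPM in FS (SD, n = 6), 0 in AF, 0.0575 in AFX and 0 in the epiblasts, with at most 7 counts in any library. Of 23 chemokine-axis genes listed, 5 had counts enough to be tested. In FS against AF, 2 of the 5 were called lower, where 10.6% of all tested genes were, and 0 higher. Cxcr4, the receptor of CXCL12, stood at 0.640 CPM in FS, 11.7 in AF and 1.82 ± 2.84 in AFX (SD, n = 3). Ackr3, a scavenger of the same ligand, stood at 0.834 CPM in FS, 3.25 in AF and 0.934 in AFX. Both averaged under 1 CPM in FS and passed the filter on low counts largely through AF, so no fold or p is given for them. Cxcl12 itself was lower in FS line 2 than in line 1 by -1.54 ± 0.31 (SE, adjusted p = 0.0112). In FS against AF the median over the 5 was -0.29, beside 0.02 over all tested genes.

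Noncanonical NF-kB signalling is a known route to Ccl19 in lymphoid stroma. The 9 genes listed for NF-kB, which also include the canonical subunits Rela and Nfkb1, were all tested. In FS against AF, 1 was called higher and 3 lower, where 8.86% and 10.6% of all tested genes were. The kinase gene Chuk was higher by 0.42 ± 0.12 (adjusted p = 0.029). The lower genes were the ligand gene Ltb, Nfkb2 and Rela. Ltb stood at 0.165 CPM in FS, with at most 6 counts in a library, 3.35 in AF and 1.19 ± 1.39 in AFX (SD, n = 3), and passed the filter on low counts through AF and AFX, so no fold or p is given for it. Nfkb2, which encodes the p100 precursor, was lower by -0.85 ± 0.21 (adjusted p = 0.00991), and Rela by -0.53 ± 0.15 (adjusted p = 0.0229). Against AFX, Nfkb2 was lower in FS by -0.74 ± 0.21 (adjusted p = 0.0379).

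Relatives of Cux2 varied. Its paralog Cux1 was even, at 105 CPM in FS and 94.4 CPM in the epiblasts, and its lowest adjusted p over the 4 comparisons was 0.146, between the FS lines (edgeR). Onecut2 was higher than in AF both in AFX, by 2.46 ± 0.43 (adjusted p = 0.00332), and in FS, by 2.0 ± 0.40 (adjusted p = 0.00254). Of 11 tested neural and upper-layer neuron genes, 3 were called higher and 1 lower in FS than in AF, where 8.86% and 10.6% of all tested genes were. Those higher were Rbfox3, which encodes NeuN, by 3.03 ± 0.48 (adjusted p = 0.000516), the neuronal tubulin gene Tubb3 by 2.13 ± 0.19, and Neurod1 by 1.79 ± 0.55 (adjusted p = 0.0328). The lower gene was Nes, which encodes nestin and is named after its values were seen, by -0.46 ± 0.11 (adjusted p = 0.00875). In FS against AFX, Tubb3 was higher by 0.58 ± 0.17 (adjusted p = 0.0453), and Dcx, which encodes doublecortin, was lower in FS than in AFX by -1.94 ± 0.56 (adjusted p = 0.0447).

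C2-domain membrane proteins, the wider family of Mctp1, moved in both directions. In AFX against AF, where Mctp1 was higher, 2 of 18 tested members were called higher and 4 lower, where 4.3% and 4.42% of all tested genes were. Those higher were Otof, the calcium sensor of hair-cell synapses, and the synaptotagmin gene Syt7, by 1.79 ± 0.32 (adjusted p = 0.00422). Otof stood at 2.28 CPM in AFX and 0.0753 in AF and passed the filter on low counts through AFX, so no fold or p is given for it. In contrast, Myof was lower by -2.56 ± 0.55 (adjusted p = 0.0115). Mctp2, the closest relative of Mctp1 and named here after its values were seen, was lower in AFX than in AF by -1.43 ± 0.40 (adjusted p = 0.037). Between the FS lines Syt6, against the direction of Mctp1, was called lower in line 2 (0.349 ± 0.352 CPM) than in line 1 (4.21 ± 2.40 CPM; SD, n = 3 each). Among the anoctamins, 6 of the 9 relatives of Ano3 were tested, and Ano6, a widely expressed scramblase, was lower in FS than in AF by -0.45 ± 0.15 (adjusted p = 0.0421) and than in AFX by -0.54 ± 0.14 (adjusted p = 0.0285). Lix1, the relative of Lix1l, stood at 0.482 CPM in FS and had too few counts to be tested.

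Genes whose pattern was most like each of the 6 were ranked by Pearson correlation of log2 CPM, among the 14554 genes whose FS mean reached 1 CPM, with the 6 themselves left out of the ranking. These values are descriptions, since the samples share lines, media and preparation. Over all 21 samples Ccl19 was most like Ccl19-ps3 (r = 0.99), Gm10600 (0.96) and Fam205a3 (0.95), all from the same stretch of chromosome 4. Over the 12 cultures it was most like Gm10260 (r = 0.99), which differs from it in the embryo: Gm10260 had 118 CPM in FS, 1.08 in AF and 1.05 in AFX, but 154 CPM in the epiblasts. C130046K22Rik (r = 0.99 over the cultures) had 2.72 CPM in FS, 0 in AF and AFX, and 0.823 CPM in the epiblasts. Both lie on other chromosomes than Ccl19, 13 and 11.

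For Mctp1 the nearest patterns over 21 samples were 9430020K01Rik (r = 0.95), Zfp365 (0.95) and Gm38194 (0.94), and over the 12 cultures Gucy1a2 (0.96), Gm37375 (0.96) and Tll2 (0.95). Gm38194 stood at 497 CPM in FS, 35.1 in AF, 403 in AFX and 10.5 in the epiblasts. Ano3 was most like Slc2a6, Zeb1 and Gm42463 over 21 samples (r = 0.98 each), and like Grin2a, Synm and Stxbp6 over the cultures (0.95, 0.94 and 0.94). Among the genes most like Lix1l over 21 samples were Tnfaip2 and Tdrkh (r = 0.98 each), with 10.6 and 77.7 CPM in FS and 0.0632 and 2.48 CPM in the epiblasts. Cux2 was most like Rufy2, Ica1 and Cpe over 21 samples (r = 0.95, 0.95 and 0.94), and like Fsd1, Ttyh1 and Dtx1 over the cultures (0.97, 0.96 and 0.94).

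Among the 6 themselves, Ccl19 and Gm2564 had r = 0.99 over the 21 samples, and Lix1l and Ano3, both near 0 in the epiblasts, had r = 0.98. Over the 12 cultures Lix1l and Ano3 had r = 0.57. Ccl19 and Mctp1 had r = 0.55 over the 21 samples and 0.11 over the cultures.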

How the data were processed

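The values analysed are the deposited raw counts, 1 column for each of 21 samples, which the authors made with Trim Galore, TopHat2 2.1.0 and featureCounts 1.5.0 on mm10, per the submitters' processing notes. The annotation release, the strand setting and the treatment of reads with several matches are not given in the sources used here. Of 33861 gene identifiers, 33683 matched GENCODE M21 (GRCm38), which gave positions and transcripts. CPM values are counts per 1000000 counts of a library, without rounding or pseudocount. Differences were tested on the counts of the 12 cultured samples with edgeR 4.0.16 (R 4.3.3; filterByExpr, TMM, robust quasi-likelihood fit, two-sided, Benjamini-Hochberg over 16052 genes, threshold 0.05), with FS as 1 group, or as 2 lines for the difference between them. Correlations used edgeR log2 CPM with a prior count of 2. Alternatives were DESeq2 1.42.0 (Wald test and size factors), other filters, other groupings and leaving out each sample. The fitting script was tested on simulated data. The members, gene lists and tests were chosen with earlier results of these data known. Genes were named by rule: all 6 members, up to 4 called genes a list with the largest difference, the 3 coding neighbours a side, the 3 most similar genes, and the first 10 of the pattern. Replicate libraries differed by more than sampling noise (chi-square per degree of freedom 4.84 to 28.97). Exact intervals at 95% and floors cover counting error only, while the intervals of tested differences come from the fitted SE. Some genes that the naming rule covers are not reported here.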

Additional observations from a re-analysis of the deposited data

Results flagged for a closer look

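Ccl19 in FS was flagged for 1 sample far from the others: FS line 2 passage 13, at 18.5 CPM, was the highest of 6, and its gap to the next sample was 0.781 of the whole range. Gm2564 was also highest there, at 17.0 CPM. Lix1l in the epiblasts was flagged for E6.0 embryo 2, with 4 counts, or 0.308 CPM, whose gap was 0.586 of the range over 9 embryos. That level rests on 4 counts and is close to the floor of 3. Chance flags about 1 in 20 such groups if their values are normally distributed, which was not checked here.

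Mctp1 was flagged for a difference between the FS lines in their distance from AF. FS line 2 stood 2.15 further from AF on the log2 scale than FS line 1, which is the tested difference between the lines given above (edgeR, adjusted p = 0.00933).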

How the results depend on the processing

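Of 344 alternative log2 differences for the 6 genes, 319 kept their direction and their side of the threshold, 21 lost the call, 3 gained it and 1 reversed without a call on either side. The calls for Cux2 against AF and for Mctp1 between the lines held under every alternative run. Those for Ccl19 and Gm2564 also did, but both genes pass the filter through FS alone. Without a filter on low counts, Mctp1 lost its calls in AFX against AF (3.72) and FS against AF (2.87), and Lix1l in FS against AF (0.63). With FS line 1 alone against AF, Lix1l (0.71), Mctp1 (1.40) and Ano3 (0.78) lost theirs, and with line 2 alone Lix1l did (0.54). For Mctp1 in FS against AFX a call appeared with the lines as separate groups (-1.24) and with line 1 alone (-2.32). Leaving out 1 sample moved Cux2 between 0.64 and 1.47 and Mctp1 between 3.36 and 4.25 in AFX against AF, Lix1l between 0.45 and 0.82 and Mctp1 between 2.50 and 3.39 in FS against AF, and Cux2 between -0.35 and 0.18 between the lines, the 0.18 without FS line 1 passage 18. The cause of these changes was not tested. Of 24 alternative correlations 5 moved, all with Spearman's rho in place of r: over the cultures Ccl19 with Gm10260 (0.82), Lix1l with Gm12279 (0.82) and Mctp1 with Gucy1a2 (0.83), and over 21 samples Gm2564 with Ccl19-ps3 (0.88) and Cux2 with Rufy2 (0.83).

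Counts of all genes called moved more. Between the lines 618 genes were called, against 1043 with DESeq2, 1298 without the filter, 1045 with the 2 lines alone and 316 to 478 with a sample left out. In AFX against AF 1401 were called, and 732 to 1129 with a sample left out, the fewest without AFX passage 15. In FS against AFX 1397 were called, and 820 to 1485 with a sample left out. Passage numbers are shared by AF and AFX but did not pair the samples (correlations of -0.134, -0.100 and 0.203 for equal numbers). With passage as a replicate block, 907 genes were called, Mctp1 among them at 3.78 (adjusted p = 0.00351). Leaving out the 5 most abundant loci and summing the Ccl19 copies were chosen after seeing the data, and the first changed no call of the 6 genes. The floor of 3 counts stood for 0.188 to 0.515 CPM by library, and levels of 1 or 2 counts lie below it.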
